A study of Mus musculus with 8 samples.

Results

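Gene expression was compared between B16F10 cells made to overexpress PGC7 and B16F10 control cells, on 4 of the 8 arrays of the series. The arrays were taken by their titles: 1 control array and 1 array each of PGC7 clone 1, clone 2 and clone 3. B16F10 is a pigmented mouse melanoma line, selected for its ability to form lung metastases. PGC7, also called Stella, is the protein of the mouse gene Dppa3. The other 4 arrays are of NIH3T3, a mouse embryonic fibroblast line: 1 control, 2 PGC7 clones and 1 PGC7 population taken before cloning. They enter here in the filter that decides which probe sets are tested, in the error estimate and as a test of whether a change in B16F10 differed from the change in the fibroblasts.

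All 8 cultures were grown in DMEM with antibiotics and fetal bovine serum, and the labels give the same overnight exposure to viral supernatant with polybrene for all of them. Whether the control received an empty virus, and which promoter drives PGC7, is not given in the labels. The genotype label of the B16F10 PGC7 samples reads "PGC8/Stella pre-cloned", while their titles, sources and descriptions name PGC7 clones, and the groups follow the titles. The design text calls the clones independent. The control is a single array, so its own spread was not measured, and differences between any cloned and uncloned culture cannot be told apart from differences due to PGC7.

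PGC7 is best known from oocytes, zygotes and primordial germ cells. In the zygote it binds maternal chromatin and protects it from oxidation of methylcytosine, and in excess it can keep the maintenance methylation factor UHRF1 away from DNA. The integrated stress response, whose genes gave the most calls below, starts when kinases that sense amino acid shortage, unfolded protein, haem shortage or double-stranded RNA phosphorylate the initiation factor eIF2. Most translation then slows, while the transcription factor ATF4 is made and, with C/EBP partners, switches on genes for amino acid supply, tRNA charging and stress adaptation at a shared DNA element, the C/EBP-ATF response element.

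Sequences that carry this element are shown first, because 17 genes of the integrated stress response were higher in the clones. The element was searched on both strands as TGATGNAA in the RefSeq promoters of mouse build GRCm38.p6, each 300 bases long (250 before and 50 after the start site). Of the 17 genes, 15 had a promoter in that collection and 8 of these (53.3%) held at least 1 match, against 1219 of 27025 genes (4.51%) overall. Of the 28 tested genes of the list 24 had a promoter there, and the same 8 (33.3%) held a match. The list gathers known genes of a response that acts through this element, so its excess over the share of all genes does not bear on the calls. The windows below are the parts upstream of the start site around the match in 7 of the 8, written 5′ to 3′ on the gene's own strand, with the match in capitals.
Nupr1: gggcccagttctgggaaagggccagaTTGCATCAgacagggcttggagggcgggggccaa
Chac1: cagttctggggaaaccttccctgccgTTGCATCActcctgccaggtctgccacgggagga
Slc7a11: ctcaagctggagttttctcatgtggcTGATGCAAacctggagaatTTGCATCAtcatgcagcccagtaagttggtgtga
Atf3: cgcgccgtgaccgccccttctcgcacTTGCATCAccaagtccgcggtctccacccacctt
Asns: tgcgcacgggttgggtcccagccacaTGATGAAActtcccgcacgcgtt
Herpud1: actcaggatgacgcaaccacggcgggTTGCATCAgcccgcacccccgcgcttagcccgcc
Jdp2: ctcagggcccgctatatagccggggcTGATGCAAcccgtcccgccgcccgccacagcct
They lie at chr7:126625547-126625606 (minus strand) for Nupr1, chr2:119351023-119351082 (plus strand) for Chac1, chr3:50443627-50443705 (minus strand) for Slc7a11, chr1:191183410-191183469 (minus strand) for Atf3, chr6:7693210-7693258 (minus strand) for Asns, chr8:94386291-94386350 (plus strand) for Herpud1 and chr12:85599357-85599415 (plus strand) for Jdp2. The Nupr1, Chac1, Atf3 and Herpud1 windows hold the same match, and Slc7a11 holds 2 matches on opposite strands. In Trib3, the last of the 8, the match lies after the start site. The 15 promoters of called genes held a median of 22 CG dinucleotides, against 8 over all genes, and the part of base composition in the motif counts was not tested. A match describes the letters of the window and is not a measured binding site.

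The deposited values are MAS5 signals in arbitrary units, scaled so that the trimmed mean of each B16F10 array was 500.003. Levels below are these signals. Changes are differences of log2(signal + 9), the mean of the 3 clones minus the control, given as change ± standard error of a limma fit of all 8 arrays as 4 groups. Adding 9 to every signal understates the change of dim genes. A probe set was tested when its mean log2 value reached that of a signal of 49.3, the median of all values, in at least 1 line. It is called higher or lower here when its two-sided p, adjusted by Benjamini-Hochberg over all 25236 tested probe sets, was under 0.05. Each gene stands for its brightest tested probe set, which gave 11643 genes. The arrays measure RNA from whole cultures, in which fewer expressing cells and less RNA per cell cannot be told apart.

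The arrays carried the melanocyte identity of the line. All 12 melanocyte markers, among them Tyr, Tyrp1, Dct, Mlana and Pmel, reached the filter signal, and their summed signal was 117192 in the control, against 137780.2, 142300.0 and 159619 in clones 1, 2 and 3, with 985 in the NIH3T3 control. The 9 measured fibroblast markers summed to 883 in the control and 715, 928 and 633 in the clones, against 96814 in the NIH3T3 control, and Col1a1, Col3a1, Dcn, Lum and Thy1 stayed under the filter signal on all 4 arrays. Of the macrophage markers 6 of 8 stayed under it, including Ptprc and Adgre1, and of the T cell markers 4 of 5. The clones resembled each other more than the control: Pearson's r over tested probe sets was 0.983 to 0.987 between clones and 0.970 to 0.977 between the control and a clone, a description over features that share arrays. Poly-A spike probe sets, which report RNA added during labelling, were 0.62, 0.45 and 0.79 higher on the log2 scale in clones 1, 2 and 3 than in the control, and the 18S ribosomal probe sets 0.76, 0.21 and 0.92 higher. Scaling on the spikes moves the median of all tested genes from 0.04 to -0.54, so list medians on that scale are given beside those on the deposited scale. The 3′ to 5′ signal ratios of Gapdh and actin, a sign of RNA integrity, were 0.841 to 0.873 and 1.29 to 1.34 over the 4 arrays.

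The Dppa3 probe set, the endogenous name of PGC7, read 23.5 in the control against 70.0, 117 and 71.0 in clones 1, 2 and 3. All 3 clones were above the control, with clone 2 the highest, and the change was 1.51 ± 0.58, which did not pass the test (adjusted p = 0.27). The control lay under the filter signal of 49.3 and the clones above it. Which stretch of the transcript this probe set covers, and whether the transgene contains it, was not analysed here, so the value is a weak check of the labels.

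In the comparison of the 3 clones with the control, limma called 300 of 25236 probe sets (1.19%), 233 higher (0.923%) and 67 lower (0.265%). With one probe set a gene, 177 genes were called (1.52%), of which 133 were higher (1.14%) and 44 lower (0.378%). A second count asks for at least a 2-fold difference in each of the 3 clones, all one way, with no test: 710 probe sets (2.81%), 585 higher (2.32%) and 125 lower (0.495%), or 350 genes (3.01%) with 300 higher (2.58%) and 50 lower (0.429%). Both criteria were met by 111 genes, 95 higher and 16 lower. No tested gene went from a control signal under 49.3 to 500 or more in all 3 clones, nor the other way. The filter on B16F10 uses the mean of 4 arrays, 3 of them clones. A gene high in all 3 clones thus passes whatever its control signal, while one high in the control alone can fail. The count of falls is therefore limited by the filter, and without it the 2-fold count was 932 probe sets higher and 478 lower. Slc7a11, Isg20, Pik3ip1 and Lgals7, given below, had control signals under 49.3, and their B16F10 means passed the filter through the clones. The counts of called and 2-fold list members below stand against the shares of tested genes given above, and a single call in a list is described as that gene alone. Of the 11643 tested genes 4783 were above the control in all 3 clones and 3752 below it in all 3, so clones all on one side of the control are common.

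The number of calls depends on the arrays in the fit. Leaving out B16F10 clone 1, 2 or 3 left 66, 139 and 59 called probe sets, and leaving out NIH3T3 clone 1 or 2 left 133 and 181. Without the uncloned NIH3T3 population 1829 were called, and a fit of the 4 B16F10 arrays alone, with their own filter, called 2883 of 20577 (14.0%), 1758 higher (8.54%) and 1125 lower (5.47%). In genes that fit called 1777 of 10112 (17.6%), 1090 higher (10.8%) and 687 lower (6.79%), and it called all 164 of the 177 genes that it tested, the same way. The others had reached the filter through NIH3T3 alone. All 177 kept their direction when any of these arrays was left out, but 36, 65 and 27 kept the call without clone 1, 2 or 3, and 76 and 104 without NIH3T3 clone 1 or 2. The call held in all 5 of these fits for 24 genes and in none of them for 68. Without a variance trend, that is with a prior spread that does not follow the signal level, 29 of the 177 kept the call, and with scaling on the poly-A spikes 102. Without clone 1, 2 or 3 the 2-fold count was 987, 1170 and 928 probe sets, a looser criterion because only the remaining clones have to pass. Scaling on the poly-A spikes turned the balance of the calls, with 144 higher and 3054 lower.

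**Figure D1:**
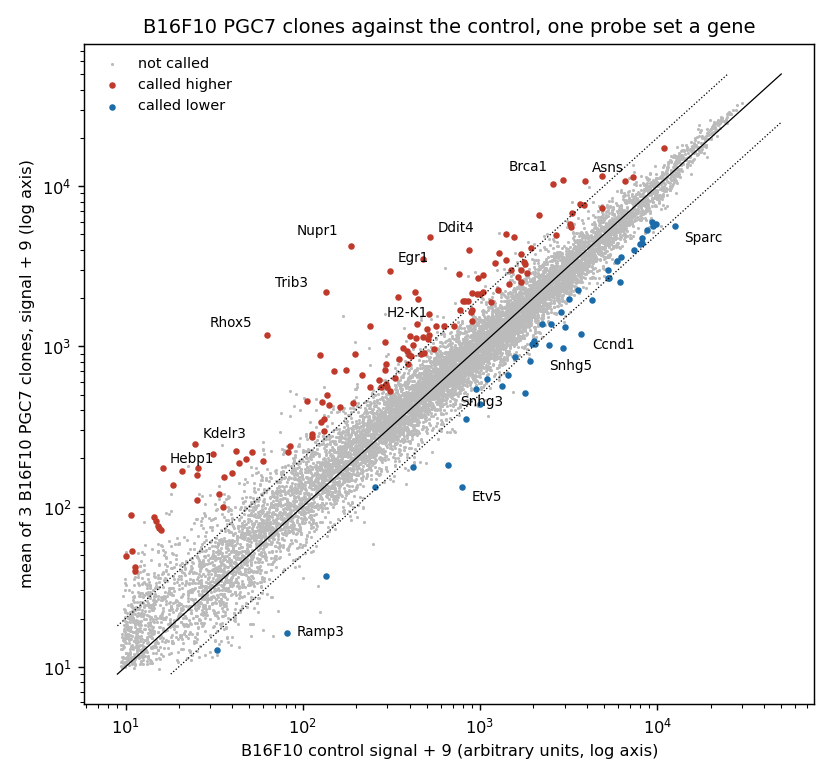
Signal of each gene in the B16F10 control (x axis) and mean signal of the 3 PGC7 clones (y axis), both plus 9 on log axes, one probe set a gene. Red points were called higher (133 genes) and blue points lower (44), the solid line marks equal signals and the dotted lines a 2-fold difference. Nupr1, Rhox5 and Trib3 lie farthest above the line, and Etv5 and Ramp3 farthest below it among the called genes.

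Genes of the integrated stress response gave more called rises than any other of the 40 gene lists examined. The lists were chosen with earlier results of these data known, so this ranking is a description. Of 29 measured genes on this list 28 were tested, and 17 were called higher and none lower, against 1.14% and 0.378% of all tested genes. At least a 2-fold rise in every clone was seen for 16, against 2.58% of all tested genes. Above the control in all 3 clones lay 26, against 4783 of 11643 tested genes. The median change of the 28 was 1.27, or 0.66 with scaling on the poly-A spikes, against 0.04 and -0.54 for all tested genes. The B16F10 arrays alone gave 25 higher and 0 lower among 27 tested, against 10.8% and 6.79% of all genes in that fit. Of these 17 calls, 9 held without clone 1, 10 without clone 2, 8 without clone 3, 14 without NIH3T3 clone 1 and 13 without NIH3T3 clone 2. With spike scaling 11 of the 17 held, and without a variance trend 7.

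Nupr1, a small chromatin protein induced by many stresses, showed the largest rise of any called gene. It read 178 in the control against 3512, 4999.9 and 4143 in clones 1, 2 and 3, a change of 4.49 ± 0.20, adjusted p = 0.000153, and its other probe set gave 3.94. Every clone lay far above the control, and clone 2 was the highest. Trib3, a pseudokinase that is induced by ATF4 and restrains it, read 126 in the control against 2130.0, 2407 and 1973 in clones 1, 2 and 3 (4.01 ± 0.28, adjusted p = 0.00094). All 3 clones were above the single control array, and the other Trib3 probe set gave 2.78. Chac1, an enzyme that breaks down glutathione, read 469.5 in the control against 3415, 3681 and 3417 in clones 1, 2 and 3 (2.88 ± 0.22, adjusted p = 0.00165), with nearly equal levels in the 3 clones. Ddit4, whose product restrains the growth kinase complex mTORC1, read 512 in the control against 4255, 3529 and 6508 in clones 1, 2 and 3 (3.15 ± 0.28, adjusted p = 0.00261), highest in clone 3. Leaving out any 1 clone of either line did not end the call of Nupr1, Trib3, Chac1 and Ddit4.

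Transcription factors of the response were higher as well on the deposited scale. Atf4 itself, which is regulated mostly at translation, read 7299.8 in the control against 11152, 12194 and 10955 in clones 1, 2 and 3, a change of 0.65 ± 0.12, adjusted p = 0.043. Atf3, a factor induced by ATF4 that also counts among the immediate early genes, read 142 in the control against 791, 641 and 641 in clones 1, 2 and 3 (2.21 ± 0.35, adjusted p = 0.0257). Ddit3, which encodes CHOP, a partner of ATF4 in prolonged stress, read 850.2 in the control against 1771, 1642 and 2342 in clones 1, 2 and 3 (1.15 ± 0.20, adjusted p = 0.0365). In each case the lowest clone was above the control. Cebpg, a C/EBP factor that dimerises with ATF4, changed by 1.19 ± 0.17, adjusted p = 0.0172, and Cebpb by 0.89 ± 0.15, adjusted p = 0.0324. Jdp2, a repressor of the AP-1 and ATF family, read 753 in the control against 2448, 3006 and 2963 in clones 1, 2 and 3 (1.88 ± 0.16, adjusted p = 0.00228). Atf5 read 457 in the control against 1079.6, 2261 and 1205 in clones 1, 2 and 3. Its clone 2 stood well above clones 1 and 3, and its change of 1.63 ± 0.55 did not pass the test (adjusted p = 0.205). Jdp2 kept the call in each of the 5 fits without 1 clone of either line. Atf3 lost its call when clone 1, clone 2 or clone 3 was left out (adjusted p up to 0.115). Cebpg lost its call when clone 2 or clone 3 was left out (adjusted p up to 0.0756). Atf4, Ddit3 and Cebpb lost the call whichever of the 5 clones of both lines was left out (adjusted p up to 0.137, 0.112 and 0.108). With spike scaling Atf4, Ddit3, Cebpg and Cebpb were not called (adjusted p = 0.939, 0.135, 0.134 and 0.464), while Atf3 and Jdp2 were.

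Effectors outside transcription rose as well. Eif4ebp1, the repressor of cap-dependent translation, changed by 1.24 ± 0.12, adjusted p = 0.00383, with signals of 4871 in the control against 10981, 12770.4 and 10986 in clones 1, 2 and 3. Herpud1, a membrane protein of endoplasmic reticulum-associated degradation, changed by 1.30 ± 0.24, adjusted p = 0.0489. Vegfa, the endothelial growth factor that ATF4 and hypoxia both induce, read 281 in the control against 1152, 772 and 1234 in clones 1, 2 and 3 (1.85 ± 0.27, adjusted p = 0.0194), lowest of the clones in clone 2, and a dimmer Vegfa probe set gave 0.97 and was not called. Sesn2, a leucine sensor that restrains mTORC1, was at least 2-fold higher in every clone but missed the call at its brightest probe set, with 92.6 in the control against 450.5, 499 and 442 in clones 1, 2 and 3 (2.22 ± 0.66, adjusted p = 0.164). Its other tested probe set was called higher, with 80.2 in the control against 316, 441 and 307 in the clones (2.01 ± 0.30, adjusted p = 0.0226). Members at the other end of the list were Stc2, at -0.12 ± 0.55, and Sqstm1, at 0.03 ± 0.20. The kinases Eif2ak3 and Eif2ak4, which phosphorylate eIF2, were at 0.39 ± 0.19 and 0.23 ± 0.30 and were not called. Ppp1r15a, the phosphatase subunit that reverses the phosphorylation, read 561 in the control against 1018, 931 and 958 in clones 1, 2 and 3 (0.78 ± 0.22, adjusted p = 0.144). Eif4ebp1 kept the call in each of the 5 fits without 1 clone of either line. Without a variance trend Eif4ebp1 was not called (adjusted p = 0.06). With spike scaling Eif4ebp1 and Herpud1 were not called (adjusted p = 0.0733 and 0.0862). Vegfa lost its call when clone 1 or clone 3 was left out (adjusted p up to 0.0856). Herpud1 lost its call when clone 1, clone 2, clone 3 or NIH3T3 clone 2 was left out (adjusted p up to 0.176).

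**Figure D2:**
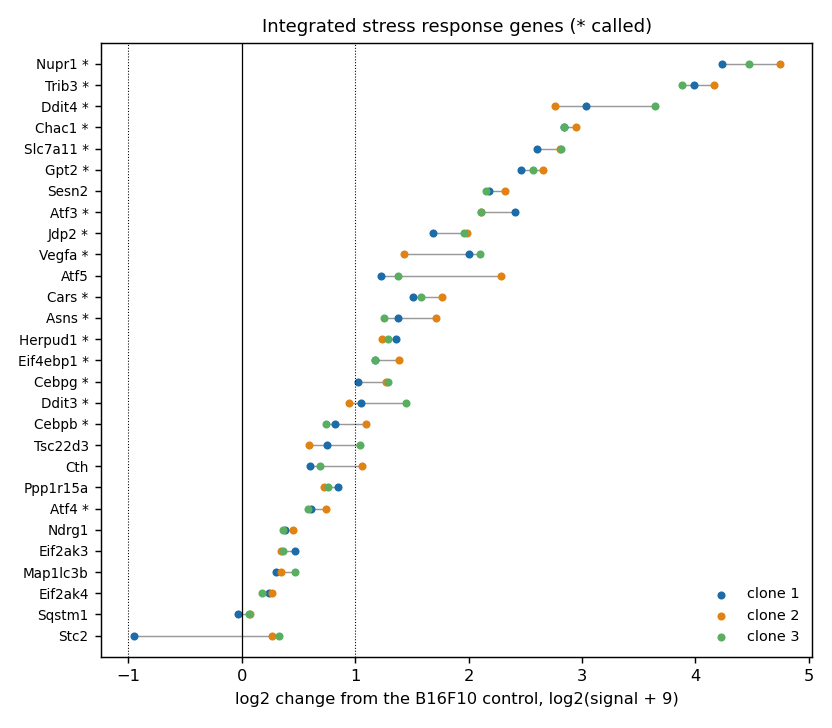
Change of each tested gene of the integrated stress response from the B16F10 control, on the log2(signal + 9) scale, with 1 point for each clone and a grey line over their range; an asterisk marks a call and dotted lines a 2-fold difference. All 3 clones lie to the right of 0 for 26 of the 28 genes, and Nupr1 and Trib3 lie near 4.

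Amino acid supply was described by 3 lists, which share genes with the stress response list. Slc7a11, Asns, Gpt2 and Cars, given here, are also among the called genes of that list above, so they are not further calls. Of 19 tested amino acid transporters 2 were called, both higher, against 1.14% of all tested genes, and the median was 0.15, or -0.24 with scaling on the poly-A spikes. Slc7a11, the subunit that imports cystine in exchange for glutamate, read 16.7 in the control against 148, 171 and 172 in clones 1, 2 and 3 (2.74 ± 0.42, adjusted p = 0.0228). Slc1a4, a carrier of alanine, serine and cysteine, read 229.8 in the control against 1302, 1341 and 1324 in clones 1, 2 and 3 (2.48 ± 0.19, adjusted p = 0.00165). For both, the 3 clones were close together and well above the control. The Slc7a11 control lay under the filter signal of 49.3, so its B16F10 mean passed the filter through the clones. Slc6a9, a glycine carrier, read 247 in the control against 398, 561 and 509.7 in clones 1, 2 and 3 and did not pass (0.95 ± 0.22, adjusted p = 0.0865).

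Of 16 tested enzymes of serine, one-carbon, proline and asparagine synthesis 3 were called higher, none lower, and 5 were at least 2-fold higher in every clone, against 1.14% called higher and 2.58% 2-fold higher over all tested genes, with a median of 0.39, or -0.22 with scaling on the poly-A spikes. Asns, asparagine synthetase, read 3892 in the control against 10110.5, 12744 and 9313 in clones 1, 2 and 3 (1.45 ± 0.20, adjusted p = 0.0172). Psph, which makes serine in the last step of its pathway, read 1537 in the control against 4366, 5918 and 4075 in clones 1, 2 and 3 (1.61 ± 0.26, adjusted p = 0.0263). Gpt2, the mitochondrial alanine aminotransferase, read 335 in the control against 1887, 2157 and 2029.8 in clones 1, 2 and 3 (2.56 ± 0.17, adjusted p = 0.00094). Each of the 3 was highest in clone 2, and every clone was above the single control array. Mthfd2, a mitochondrial folate enzyme, read 4089 in the control against 8911, 11229 and 9461 in the clones and missed the call (1.26 ± 0.27, adjusted p = 0.0747). So did Aldh18a1, which starts proline synthesis, with 3301 in the control against 7369.5, 8848 and 7509 in the clones (1.25 ± 0.28, adjusted p = 0.0787).

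Of 19 tested cytosolic tRNA synthetases, which charge tRNAs with amino acids, 4 were called higher and none lower, against 1.14% and 0.378% of all tested genes, with a median of 0.42, or -0.19 with scaling on the poly-A spikes. Cars, for cysteine, read 506 in the control against 1460.3, 1742 and 1529.6 in clones 1, 2 and 3 (1.62 ± 0.14, adjusted p = 0.00262). Sars, for serine, read 3639.8 in the control against 7153, 8856 and 7159 in clones 1, 2 and 3 (1.08 ± 0.16, adjusted p = 0.0194). Aars, for alanine, and Nars, for asparagine, changed by 0.98 ± 0.13, adjusted p = 0.0157 and by 0.70 ± 0.13, adjusted p = 0.0489. All 4 were highest in clone 2 and above the control in every clone. Hars, for histidine, was at -0.33 ± 0.14 and Kars, for lysine, at -0.27 ± 0.15, neither of them called. The response element had at least 1 match in 5 of the 12 tRNA synthetase promoters in the collection and in 3 of the 14 transporter promoters. Without clone 1, 2 or 3 the fit kept 2, 2 and 1 of the 4 calls, and without NIH3T3 clone 1 or 2 it kept 2 and 3. With spike scaling 1 of the 4 held, and without a variance trend 1. Of the calls of the serine list the same fits without 1 B16F10 clone kept 1, 2 and 1 of 3, those without NIH3T3 clone 1 or 2 kept 2 and 3, and without a variance trend 1 held. Of the transporter calls 1 of 2 held without each of the 3 B16F10 clones and 1 without a variance trend.

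Chaperones of the endoplasmic reticulum, which the unfolded protein branch of stress signalling induces, gave 1 call among 20 tested members, the oxidase Ero1a, and the median was 0.12, or -0.49 with scaling on the poly-A spikes. Ero1a, which also responds to hypoxia, read 1399 in the control against 5016, 3747 and 6221 in clones 1, 2 and 3 (1.80 ± 0.23, adjusted p = 0.014), above the control in every clone. Ero1a lost its call when clone 1 was left out (adjusted p up to 0.0628). Hyou1 and Creld2, a chaperone and a folding factor of the lumen, read 2253 in the control against 1988, 1679 and 1876 in clones 1, 2 and 3 and 2898 in the control against 2377, 2209 and 2307 in the clones, neither of them called. Of 18 tested heat shock proteins none was called, and the median was 0.02, or -0.60 with scaling on the poly-A spikes, also turning below 0 with quantile normalization.

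Genes of ribosome production gave more called falls than any other list, among lists chosen with earlier results of these data known. Of 32 tested nucleolar and ribosome biogenesis genes 6 were called lower and none higher, against 0.378% and 1.14% of all tested genes. Below the control in all 3 clones lay 30, against 3752 of 11643 tested genes. None reached a 2-fold fall in every clone. The median was -0.58, or -1.19 with scaling on the poly-A spikes. The B16F10 arrays alone gave 0 higher and 25 lower among 32 tested, against 10.8% and 6.79% of all genes in that fit. Gnl3, which encodes nucleostemin, a GTPase of the nucleolus, read 5909 in the control against 3371, 3451 and 3299.9 in clones 1, 2 and 3 (-0.81 ± 0.12, adjusted p = 0.0224). Dkc1, the pseudouridine synthase dyskerin, read 8712 in the control against 5333, 5477 and 5176 in clones 1, 2 and 3 (-0.71 ± 0.13, adjusted p = 0.0468). Nop58, a core protein of box C/D small nucleolar RNPs, read 9287 in the control against 6023, 5867 and 5892 in clones 1, 2 and 3 (-0.65 ± 0.12, adjusted p = 0.0485). The clones agreed closely for all 3 genes and lay below the single control array. Ppan, a factor for the large ribosomal subunit, had the largest fall on the list, -1.13 ± 0.19, adjusted p = 0.0372. Mybbp1a, a nucleolar partner of Myb, and Wdr12, of the PeBoW complex that matures the large subunit, changed by -0.78 ± 0.15, adjusted p = 0.0496 and by -0.67 ± 0.13, adjusted p = 0.0489. The 6 calls became 0, 0 and 0 without clone 1, 2 or 3, and 0 and 2 without NIH3T3 clone 1 or 2. With spike scaling 6 of the 6 held, and without a variance trend 0.

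Host genes of small nucleolar RNAs, which carry the guide RNAs of rRNA modification in their introns, had a median further below 0. Of 14 tested 3 were called lower, all 3 at least 2-fold in every clone, against 0.378% called and 0.429% 2-fold lower over all tested genes. The median was -0.73, or -1.34 with scaling on the poly-A spikes. Below the control in all 3 clones were 11, against 3752 of 11643 tested genes. Snhg3 read 1793 in the control against 504, 566 and 426 in clones 1, 2 and 3 (-1.84 ± 0.26, adjusted p = 0.0172). Snhg5 read 2932 in the control against 950.3, 946 and 987 in clones 1, 2 and 3 (-1.60 ± 0.24, adjusted p = 0.0219), and the 3 clones were nearly equal. Snhg17 read 409.8 in the control against 147, 192 and 161 in clones 1, 2 and 3 (-1.26 ± 0.23, adjusted p = 0.0477). Dancr, a further host gene, read 685 in the control against 259.7, 369.9 and 263 in clones 1, 2 and 3 and did not pass (-1.20 ± 0.27, adjusted p = 0.0824). Without clone 1, 2 or 3 the fit kept 0, 1 and 0 of the 3 calls, and without NIH3T3 clone 1 or 2 it kept 1 and 2. With spike scaling 3 of the 3 held, and without a variance trend 0.

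The proteins of the ribosome itself gave no call. Among 14 tested ribosomal protein genes the median was 0.15, or -0.46 with scaling on the poly-A spikes. Rps14, of the small subunit, read 21271 in the control against 22558, 25160.1 and 25588 in clones 1, 2 and 3, and Rpl8, of the large one, 17784 in the control against 18392, 20809 and 22107 in the clones. Neither was called. Genes of the Myc and Max network, which drives ribosome production, gave 1 call in 11: Mxd4, a Max partner that represses Myc targets, read 208 in the control against 609, 749 and 599.8 in clones 1, 2 and 3 (1.60 ± 0.21, adjusted p = 0.014). Its clones were far above the control. Mxd4 lost its call when clone 1 or clone 3 was left out (adjusted p up to 0.0595). Mxi1, a second such repressor, read 936 in the control against 2318, 1643 and 2389 in clones 1, 2 and 3 (1.15 ± 0.25, adjusted p = 0.0734), and Myc itself 3063 in the control against 2285, 2563 and 1937 in clones 1, 2 and 3 (-0.45 ± 0.36, adjusted p = 0.625). Myc was lower in each clone without passing the test. The Myc-type E-box CACGTG occurred in 6 of 26 nucleolar promoters of the collection (23.1%), against 8.09% of all genes. It occurred as well in promoters of lists with called rises: 4 of 12 tRNA synthetase promoters (33.3%), 3 of 14 transporter promoters (21.4%) and 3 of 14 promoters of the serine list (21.4%).

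**Figure D3:**
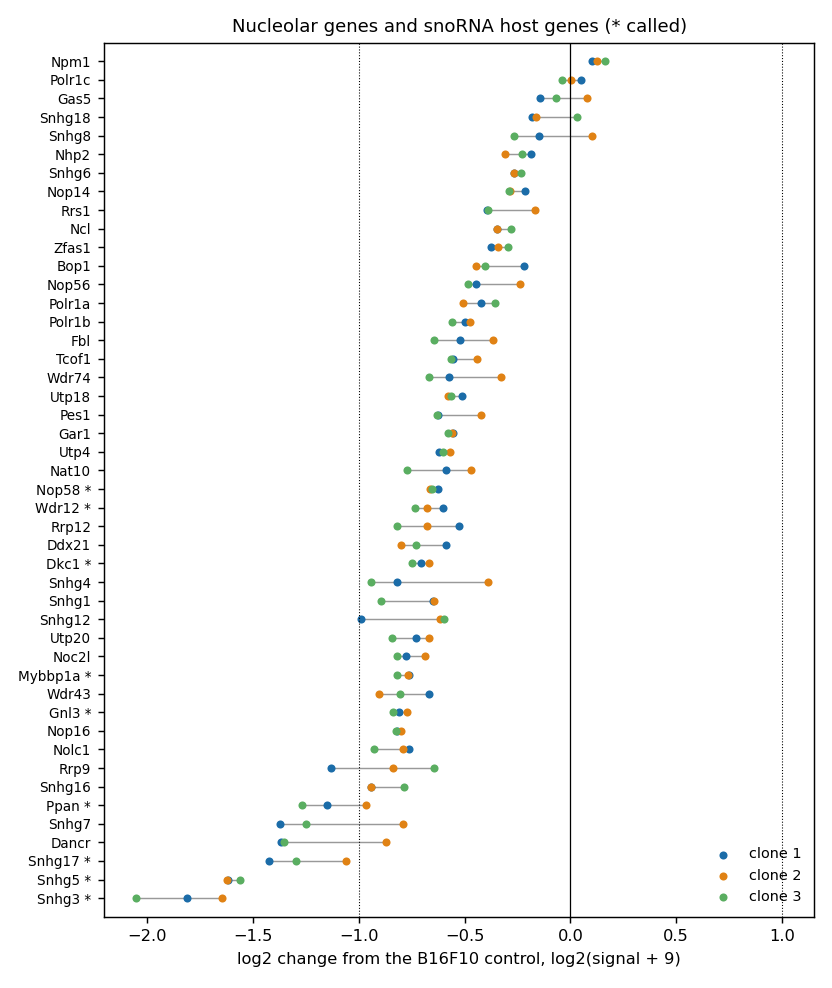
Change of each tested nucleolar gene and small nucleolar RNA host gene from the B16F10 control on the log2(signal + 9) scale, with 1 point for each clone and a grey line over their range; an asterisk marks a call and dotted lines a 2-fold fall or rise. Most points lie between 0 and -1, and Snhg3, Snhg5 and Snhg17 lie beyond -1 in all 3 clones.

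Regulators of growth signalling moved in opposite directions within lists. Of 17 tested output genes of the ERK kinase pathway 1 was called higher and 2 lower, against 1.14% and 0.378% of all tested genes. Etv5, an ETS factor induced by ERK and by fibroblast growth factors, read 784 in the control against 122, 88.8 and 159.6 in clones 1, 2 and 3, a change of -2.62 ± 0.27, adjusted p = 0.00581. Ccnd1, cyclin D1, which starts the G1 phase with its kinases, read 3707 in the control against 1141, 1321 and 1083 in clones 1, 2 and 3 (-1.65 ± 0.15, adjusted p = 0.00361), and all 3 of its probe sets were called lower, by 1.12 to 1.66. Both genes were lower in every clone than in the control by at least 2-fold. Egr1, an ERK-induced zinc finger factor, had the other sign, with 303 in the control against 3300.2, 3032 and 2498 in clones 1, 2 and 3 (3.23 ± 0.25, adjusted p = 0.00165). Of 26 tested immediate early factors, Egr1 among them, 4 were called higher and none lower, against 1.14% and 0.378% of all tested genes. The other members were not called, and the list median was 0.48, or -0.11 with scaling on the poly-A spikes. Jun, an AP-1 subunit, read 1278 in the control against 3316, 4021 and 4167 in clones 1, 2 and 3 (1.57 ± 0.15, adjusted p = 0.00391), and Ier2 read 1036 in the control against 1980.0, 2244 and 2309.7 in clones 1, 2 and 3 (1.06 ± 0.16, adjusted p = 0.0228). Each was above the control in every clone. Of these 4 calls, 2 held without clone 1, 2 without clone 2, 2 without clone 3, 4 without NIH3T3 clone 1 and 4 without NIH3T3 clone 2. With spike scaling 3 of the 4 held, and without a variance trend 1. Leaving out any 1 clone of either line did not end the call of Egr1, Etv5 and Ccnd1.

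Cell cycle genes gave few calls. No gene of 35 tested for G2/M and mitosis was called, yet 30 were below the control in all 3 clones, against 3752 of 11643 tested genes. The median was -0.29, or -0.91 with scaling on the poly-A spikes. The B16F10 arrays alone gave 1 higher and 15 lower among 35 tested, against 10.8% and 6.79% of all genes in that fit. Cdc20, an activator of the anaphase-promoting complex, read 11041 in the control against 7274, 7963 and 6574 in clones 1, 2 and 3 (-0.61 ± 0.14, adjusted p = 0.0934), and Plk1, a mitotic kinase, 3384 in the control against 2336, 2501 and 2303 in clones 1, 2 and 3 (-0.51 ± 0.12, adjusted p = 0.0923). Neither passed the test. Of 38 tested genes of DNA replication and homologous repair 1 was called, and it was higher: Brca1, a repair scaffold, read 2916 in the control against 10511, 10419 and 11554 in clones 1, 2 and 3 (1.89 ± 0.20, adjusted p = 0.00602). At this probe set every clone was above the single control array. Of 4 Brca1 probe sets 3 were called, with changes from 0.01 to 3.22 over the 4. The median of the list was -0.14, or -0.76 with scaling on the poly-A spikes. Below the control in all 3 clones were 27 members, against 3752 of 11643 tested genes. Among 17 CDK inhibitors and G1 cyclins and kinases Ccng2, an atypical cyclin linked to cell cycle exit, was called higher beside the fall of Ccnd1, with 419 in the control against 2086, 1508 and 2890.4 in clones 1, 2 and 3 (2.29 ± 0.29, adjusted p = 0.0133). Of 23 p53 targets 1 was called, Trp53inp1, a stress protein that supports autophagy and p53, with 966 in the control against 2409, 3347 and 2252 in clones 1, 2 and 3 (1.44 ± 0.24, adjusted p = 0.0311). Of 24 apoptosis regulators none was called, and the BH3-only gene Bmf was at least 2-fold higher in every clone, with 61.2 in the control against 152, 139 and 171 in the clones (1.21 ± 0.39, adjusted p = 0.193). Brca1 kept the call in each of the 5 fits without 1 clone of either line. Without a variance trend Brca1 was not called (adjusted p = 0.0568). Ccng2 lost its call when clone 1 was left out (adjusted p up to 0.059). Trp53inp1 lost the call whichever of the 5 clones of both lines was left out (adjusted p up to 0.0948).

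Of 32 tested genes of the hypoxia response and glycolysis 3 were called higher and none lower, and 6 were at least 2-fold higher in every clone, more so in clones 1 and 3 than in clone 2. Over all tested genes 1.14% were called higher and 2.58% were 2-fold higher. The median was 0.56, or -0.01 with scaling on the poly-A spikes. The B16F10 arrays alone gave 15 higher and 1 lower among 32 tested, against 10.8% and 6.79% of all genes in that fit. Bnip3, a mitophagy receptor, read 2569 in the control against 11146, 6270.3 and 13292 in clones 1, 2 and 3 (1.92 ± 0.33, adjusted p = 0.0379). Car9, the carbonic anhydrase that is a standard hypoxia marker, read 159.6 in the control against 1641, 981 and 1958 in clones 1, 2 and 3 and missed the call (3.13 ± 0.90, adjusted p = 0.147). Ankrd37, a hypoxia-inducible ankyrin protein, read 83.0 in the control against 556, 272 and 646 in clones 1, 2 and 3 (2.35 ± 0.59, adjusted p = 0.106), and Aldoc, a glycolytic aldolase, 932 in the control against 2934, 2118 and 3579 in clones 1, 2 and 3 (1.58 ± 0.67, adjusted p = 0.312). For all 6 of these 2-fold genes, Vegfa and Ero1a among them, clone 3 was the highest and clone 2 the lowest clone, and every clone lay above the control. The core of the hypoxia response element, ACGTG, which the E-box above contains, occurred in the promoters of all 6. It occurred in 22 of 30 tested members of the list with a promoter in the collection, and in 5886 of 27025 genes (21.8%). The list gathers known genes of the hypoxia response, so its excess over the share of all genes does not bear on the calls. The core also occurred in 6 of 12 tRNA synthetase promoters and 9 of 26 nucleolar ones. It holds a CG, and promoters of the hypoxia list held a median of 24.5 CG dinucleotides, against 8 over all genes. The part of base composition was not tested. Slc2a1, the glucose carrier, and Ldha, lactate dehydrogenase, were at 0.32 ± 0.26 and 0.40 ± 0.19 and were not called. Without clone 1, 2 or 3 the fit kept 0, 3 and 1 of the 3 calls, and without NIH3T3 clone 1 or 2 it kept 2 and 2. With spike scaling 3 of the 3 held, and without a variance trend 0.

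Among 25 circadian and metabolic stress regulators 2 were called higher and none lower, against 1.14% of all tested genes, with a median of 0.24, or -0.33 with scaling on the poly-A spikes. Klf9, a factor induced by glucocorticoids, read 165 in the control against 643, 558 and 917 in clones 1, 2 and 3 (2.01 ± 0.29, adjusted p = 0.0194). Pik3ip1, an inhibitor of PI3 kinase that is induced on growth factor withdrawal, read 31.1 in the control against 132, 126 and 202 in clones 1, 2 and 3 (1.99 ± 0.31, adjusted p = 0.0235). Both were highest in clone 3 and above the control in all clones. Other Klf9 probe sets gave 0.12 to 1.73, not all of them called, and a second Pik3ip1 probe set gave 0.65, not called. None of 21 tested genes of cholesterol and fatty acid synthesis was called, and the median was 0.33, or -0.29 with scaling on the poly-A spikes. Of 34 subunits of oxidative phosphorylation none was called, with a median of 0.15, or -0.47 with scaling on the poly-A spikes, and Sdhc, of complex II, had 3031 in the control against 3876, 3755 and 4174 in clones 1, 2 and 3. Of 27 genes of the oxidant response 1 was called, Slc7a11, given above. Hmox1, haem oxygenase, read 446 in the control against 1447, 1089 and 1609 in clones 1, 2 and 3 (1.59 ± 0.41, adjusted p = 0.11), and Osgin1, a second Nrf2-responsive gene, 707 in the control against 281, 312 and 273 in clones 1, 2 and 3 (-1.27 ± 0.25, adjusted p = 0.0603). These 2 had opposite signs and neither passed. The 2 calls became 0, 1 and 0 without clone 1, 2 or 3, and 0 and 1 without NIH3T3 clone 1 or 2. With spike scaling 2 of the 2 held, and without a variance trend 0.

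Genes of antigen presentation by MHC class I gave 2 calls among 14 tested, both higher, against 1.14% of all tested genes, and the median was 0.11, or -0.47 with scaling on the poly-A spikes. H2-K1, a classical class I heavy chain of the C57BL/6 background of this line, read 620.0 in the control against 1277, 1254 and 1480.4 in clones 1, 2 and 3 (1.09 ± 0.14, adjusted p = 0.014), and its 3 probe sets were all called higher, by 1.09 to 3.92. H2-D1, the second heavy chain, read 816 in the control against 1874, 1718 and 2094 in clones 1, 2 and 3 (1.20 ± 0.13, adjusted p = 0.00793). Every clone lay above the control for both genes. The other H2-D1 probe sets gave 0.82 to 1.35, and not all of them were called. The class I genes are near-identical over long stretches, so probe sets can read their neighbours. Tapbp, which encodes tapasin, the loading chaperone, read 368 in the control against 781, 703 and 920.3 in clones 1, 2 and 3 (1.10 ± 0.21, adjusted p = 0.0543), and B2m, the light chain, 6566 in the control against 8517, 7503 and 10144 in clones 1, 2 and 3 (0.40 ± 0.17, adjusted p = 0.308). Neither passed the test. Of these 2 calls, 1 held without clone 1, 2 without clone 2, 1 without clone 3, 2 without NIH3T3 clone 1 and 2 without NIH3T3 clone 2. With spike scaling 0 of the 2 held, and without a variance trend 0. Of 29 tested interferon-stimulated genes 1 was called, Isg20, an exonuclease, with 26.9 in the control against 129.7, 121 and 181 in clones 1, 2 and 3 (2.07 ± 0.30, adjusted p = 0.0196). Rsad2, the antiviral enzyme viperin, was at least 2-fold higher in every clone without passing, with 445 in the control against 1334, 1318 and 1491 in the clones (1.61 ± 0.57, adjusted p = 0.23). The median of the interferon list was 0.20, or -0.38 with scaling on the poly-A spikes. Isg20 lost its call when clone 1, clone 3 or NIH3T3 clone 1 was left out (adjusted p up to 0.0735).

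Rhox5, a homeobox gene of the X-linked reproductive cluster that is active in Sertoli cells, epididymis, placenta and many tumour lines and is repressed by promoter methylation in most somatic cells, rose more than any gene but Nupr1. It read 54.0 in the control against 939, 1355 and 1227 in clones 1, 2 and 3, a change of 4.21 ± 0.21, adjusted p = 0.000237. The control was near the filter signal, and each clone was far above it. Its RefSeq promoter upstream of the start site, at chrX:37754358-37754607 (plus strand) in GRCm38.p6, is shown because methylation of such sites is the readout linked to PGC7, although methylation was not measured here. Capitals mark its CG dinucleotides, of which there are 4.
Rhox5: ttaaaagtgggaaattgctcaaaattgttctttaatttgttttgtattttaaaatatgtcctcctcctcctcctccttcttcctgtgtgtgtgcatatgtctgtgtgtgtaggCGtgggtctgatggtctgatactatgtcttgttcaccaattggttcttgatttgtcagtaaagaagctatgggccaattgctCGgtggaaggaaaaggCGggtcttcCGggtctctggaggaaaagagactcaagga
Rhox5 was the only call among 8 tested germline genes, while 20 further germline genes were measured and did not reach the filter. These moved both ways at signals near or under the filter signal, and none was tested. Piwil2, a PIWI protein of the germ line, read 16.1 in the control against 35.2, 53.3 and 49.1 in clones 1, 2 and 3. Dazl read 19.5 in the control against 5.85, 1.12 and 4.22 in the clones, and Stk31 11.3 against 1.82, 0.513 and 1.52. Stra8, which starts meiosis, read 14.0 in the control against 2.15, 4.56 and 3.44 in clones 1, 2 and 3, and Cpeb1, an RNA-binding regulator in oocytes, 151 in the control against 253, 219 and 275 in clones 1, 2 and 3. Of 8 tested pluripotency and early embryo genes none was called, and 15 more did not reach the filter. Rhox5 kept the call in each of the 5 fits without 1 clone of either line.

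The DNA methylation machinery gave no call among 23 tested genes, with a median of -0.03, or -0.62 with scaling on the poly-A spikes. Dnmt1, the maintenance methyltransferase, read 5136 in the control against 4813, 5143 and 4672 in clones 1, 2 and 3 (-0.08 ± 0.13, adjusted p = 0.838). Uhrf1, which brings it to replicated DNA, read 10201 in the control against 7961, 8167 and 7392 in clones 1, 2 and 3 (-0.38 ± 0.12, adjusted p = 0.182). Tet1, a dioxygenase that oxidises methylcytosine, read 245 in the control against 458, 278 and 506 in clones 1, 2 and 3 (0.69 ± 0.37, adjusted p = 0.425). At these probe sets the Dnmt1 clones lay on both sides of the control, all 3 Uhrf1 clones below it and all 3 Tet1 clones above it. None passed the test. The other tested Tet1 probe sets gave 0.38 and -0.06 and were not called, the latter with clones 1 and 3 below the control. Dnmt3a and Dnmt3b, the de novo enzymes, were at 0.12 ± 0.17 and -0.36 ± 0.26, not called. Among 23 tested imprinted genes none was called, with a median of 0.09, or -0.45 with scaling on the poly-A spikes, and Mest, an imprinted hydrolase-like gene, was at least 2-fold lower in every clone, with 528 in the control against 204, 218 and 211 in the clones (-1.29 ± 0.31, adjusted p = 0.0978). Of 33 Polycomb, deacetylase and other histone modifier genes 1 was called, the H3K4 demethylase Kdm5b, with 283 in the control against 628, 644 and 849 in clones 1, 2 and 3 (1.28 ± 0.19, adjusted p = 0.0226). Its clone 3 was the highest and all clones exceeded the control. Kdm5b lost its call when clone 1, clone 2, clone 3 or NIH3T3 clone 1 was left out (adjusted p up to 0.0682).

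Of 27 tested melanocyte genes 2 were called higher and none lower, against 1.14% of all tested genes, and the median was 0.31, or -0.31 with scaling on the poly-A spikes, so its direction depends on the scale. Trpm1, melastatin, a channel gene under MITF control whose loss marks aggressive melanoma, read 859 in the control against 3766, 2818 and 5372 in clones 1, 2 and 3 (2.15 ± 0.36, adjusted p = 0.0356). Met, the receptor for hepatocyte growth factor and a further MITF target, read 3300.2 in the control against 6565, 6231 and 7616 in clones 1, 2 and 3 (1.04 ± 0.16, adjusted p = 0.0228). Kit, the receptor for stem cell factor on which melanoblasts depend, had a low signal in the control and missed the call, with 13.6 in the control against 146, 207 and 159.6 in clones 1, 2 and 3 (2.98 ± 0.70, adjusted p = 0.0925). Oca2, a melanosomal ion transporter, read 109.8 in the control against 386, 261 and 521 in clones 1, 2 and 3 (1.69 ± 0.44, adjusted p = 0.118). For these genes every clone was above the single control array. Mitf, the master factor, was at 0.29 ± 0.11, and the pigment enzymes Tyrp1 and Dct at 0.20 ± 0.19 and 0.22 ± 0.52, none of them called. Tyr, tyrosinase, read 3905 in the control against 7451, 6185 and 9735 in clones 1, 2 and 3 (0.97 ± 0.53, adjusted p = 0.439). Of 31 tested lysosome and autophagy genes 1 was called, Neu1, the lysosomal sialidase, with 411 in the control against 934, 902 and 1207 in clones 1, 2 and 3 (1.27 ± 0.20, adjusted p = 0.0248), and the median was 0.33, or -0.26 with scaling on the poly-A spikes. Calls of Trpm1 and Met numbered 0, 0 and 0 without clone 1, 2 or 3, and 0 and 1 without NIH3T3 clone 1 or 2. Neu1 lost its call when clone 1, clone 2, clone 3 or NIH3T3 clone 1 was left out (adjusted p up to 0.0948).

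Genes of adhesion, matrix and spread gave scattered calls. Itgb2, the β2 integrin chain of leukocytes, read 1.72 in the control against 79.6, 65.0 and 94.4 in clones 1, 2 and 3 (3.03 ± 0.42, adjusted p = 0.0164), and was the 1 call among 27 integrins and cadherins. It was tested because the NIH3T3 arrays reached the filter, where it read 15.4 in its control and 366, 599 and 327 in clone 1, clone 2 and the uncloned population, a change of 4.12 (adjusted p = 0.000689). The difference between the lines did not pass (-1.09 ± 0.59, adjusted p = 0.316). Bgn and Plat, below, also reached the filter through NIH3T3 alone. The leukocyte gene Ptprc stayed under the filter signal on all 4 B16F10 arrays, and the source of the Itgb2 signal was not tested. Mcam, an adhesion molecule linked to melanoma spread, was at least 2-fold lower in every clone and missed the call, with 1093 in the control against 325, 392 and 350.3 in the clones (-1.60 ± 0.34, adjusted p = 0.0705). Sparc, a matricellular protein of invasive melanoma, read 12620.2 in the control against 5588, 5609 and 5626 in clones 1, 2 and 3 (-1.17 ± 0.10, adjusted p = 0.00228), with the 3 clones almost equal and both of its probe sets called lower. Bgn, the proteoglycan biglycan, was the second call among 26 collagen and matrix genes, but read only 23.9 in the control against 2.36, 4.25 and 4.83 in clones 1, 2 and 3 (-1.37 ± 0.24, adjusted p = 0.0377), and its other 2 probe sets were not called, at -0.92 and 0.49. Postn, periostin, read 213 in the control against 65.1, 73.8 and 75.7 in the clones without passing (-1.47 ± 0.31, adjusted p = 0.072). Among 25 matrix proteases and inhibitors Plat, the tissue plasminogen activator, was called higher, with 6.83 in the control against 75.2, 46.8 and 64.8 in clones 1, 2 and 3 (2.15 ± 0.31, adjusted p = 0.0201), and Hpse, heparanase, missed the call with 75.5 in the control against 515, 307 and 726 in clones 1, 2 and 3 (2.55 ± 0.72, adjusted p = 0.14). The medians of the integrin, matrix and protease lists were 0.03, -0.04 and -0.11, or -0.55, -0.51 and -0.63 with scaling on the spikes. Sparc kept the call in each of the 5 fits without 1 clone of either line. Without a variance trend Sparc was not called (adjusted p = 0.0564). Itgb2 lost its call when clone 1 or clone 3 was left out (adjusted p up to 0.0718). Plat lost its call when clone 1, clone 3 or NIH3T3 clone 1 was left out (adjusted p up to 0.0831). Bgn lost the call whichever of the 5 clones of both lines was left out (adjusted p up to 0.109).

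Of 21 metastasis suppressor genes 1 was called, Pdcd4, an inhibitor of translation initiation, with 432 in the control against 1287, 1464 and 1373 in clones 1, 2 and 3 (1.65 ± 0.16, adjusted p = 0.00437). Cd82, a tetraspanin that restrains cell movement, was at least 2-fold higher in every clone without being called, with 627 in the control against 1334, 1352 and 1418 in the clones (1.11 ± 0.32, adjusted p = 0.146). In both, every clone was above the single control array, which a rise of at least 2-fold in each clone already implies. Of 21 genes of the epithelial-mesenchymal transition only Sparc was called, and of 24 YAP and TGF-β targets none. Ccn2, a target of both, read 709.9 in the control against 259.7, 353 and 241 in clones 1, 2 and 3 (-1.31 ± 0.63, adjusted p = 0.375). Among 21 chemokines and cytokines Il18, an interferon-γ-inducing cytokine, was called higher, with 75.7 in the control against 243, 222 and 223 in clones 1, 2 and 3 (1.49 ± 0.21, adjusted p = 0.0187). Of 33 receptor tyrosine kinases and growth factors the calls were Vegfa and Met, given above. The medians of the suppressor, YAP and chemokine lists were 0.15, -0.17 and 0.12, or -0.45, -0.78 and -0.06 on the spike scale. Leaving out any 1 clone of either line did not end the call of Pdcd4. Il18 lost its call when clone 1, clone 2 or clone 3 was left out (adjusted p up to 0.088). Of 12 housekeeping genes none was called, with a median of 0.14, or -0.48 with scaling on the poly-A spikes.

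**Figure D4:**
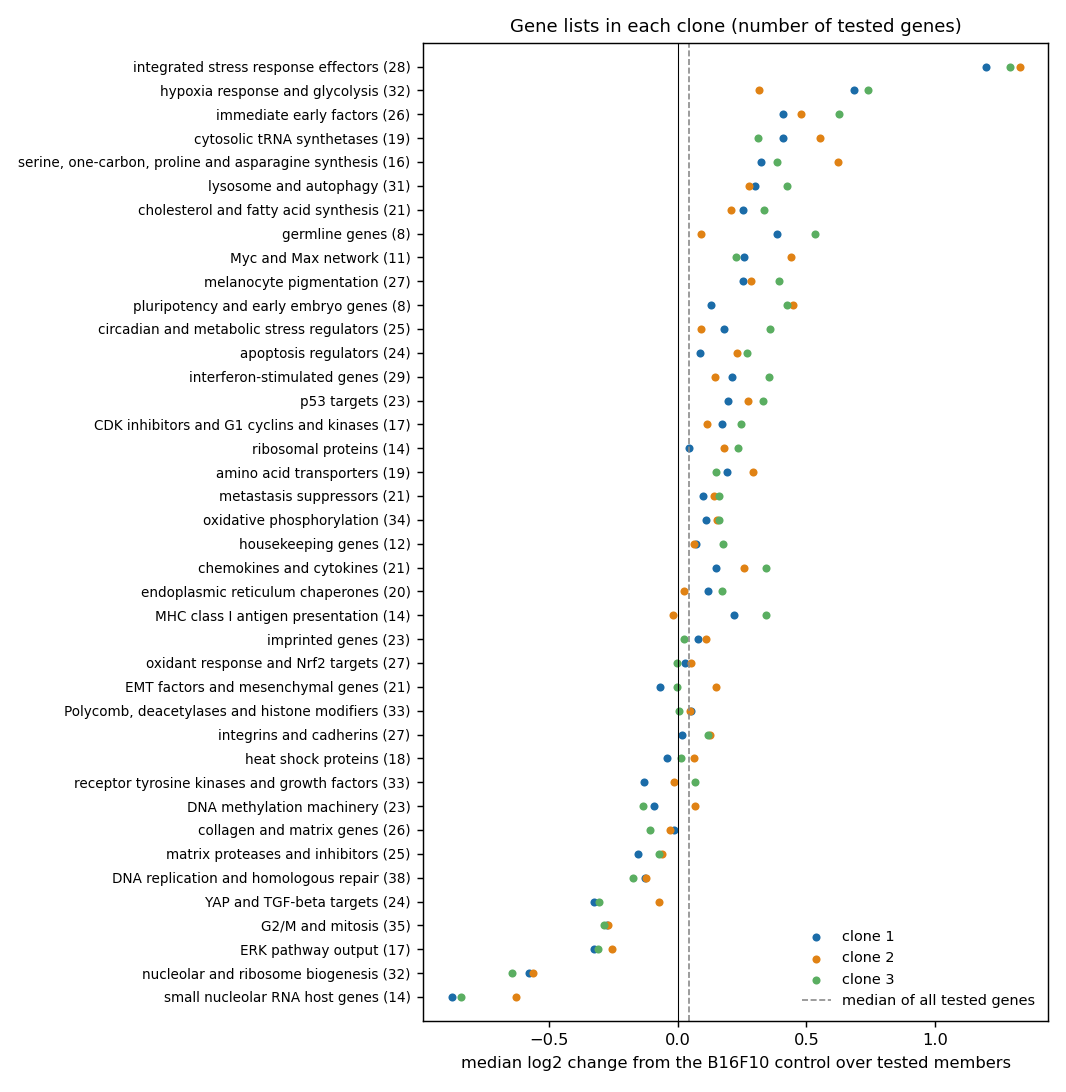
Median change of the tested members of each of the 40 gene lists from the B16F10 control, with 1 point for each clone on the log2(signal + 9) scale and the number of tested genes in brackets; the dashed line is the median of all tested genes. The integrated stress response lies farthest to the right in all 3 clones, and the small nucleolar RNA host genes and nucleolar genes farthest to the left.

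Several of the largest rises lay outside these lists. Hebp1, a haem-binding protein, read 7.20 in the control against 163, 135 and 196 in clones 1, 2 and 3 (3.41 ± 0.24, adjusted p = 0.00094). Kdelr3, a receptor that returns escaped proteins to the endoplasmic reticulum, read 15.7 in the control against 266, 185 and 263 in clones 1, 2 and 3 (3.30 ± 0.23, adjusted p = 0.00094). In both the control was under the filter signal and every clone above it, so the B16F10 mean passed the filter through the clones. Mgarp, a mitochondrial protein, read 115 in the control against 919, 579 and 1116 in clones 1, 2 and 3 (2.77 ± 0.37, adjusted p = 0.0156), and Hs3st1, a heparan sulfate sulfotransferase, 21.96 in the control against 238, 145 and 226 in clones 1, 2 and 3 (2.74 ± 0.42, adjusted p = 0.0228). Pygl, the glycogen phosphorylase of liver type, read 32.8 in the control against 194, 162 and 280.1 in clones 1, 2 and 3 (2.37 ± 0.43, adjusted p = 0.0453). Clone 2 was the lowest clone for these 3 genes. Bdnf, a neurotrophin, was highest in clone 2, with 5.50 in the control against 57.8, 107 and 68.2 in clones 1, 2 and 3 (2.54 ± 0.34, adjusted p = 0.0145). The remaining genes among the 20 largest called rises, Cyp4v3, Lgals7, Scara5 and Ccdc189, changed by 2.98 ± 0.46, 2.89 ± 0.50, 2.62 ± 0.22 and 2.41 ± 0.45, all from control signals under 49.3. Bdnf and Ccdc189 were tested because the NIH3T3 arrays reached the filter. Scara5, Hebp1 and Kdelr3 kept the call in each of the 5 fits without 1 clone of either line. A second, dim Scara5 probe set gave 0.45 and was not called, with clones 1 and 2 below the control. Cyp4v3 lost its call when clone 1, clone 2, clone 3 or NIH3T3 clone 1 was left out (adjusted p up to 0.1). Lgals7 lost its call when clone 1, clone 2 or clone 3 was left out (adjusted p up to 0.143). Mgarp lost its call when clone 1 or clone 3 was left out (adjusted p up to 0.077). Hs3st1 lost its call when clone 1, clone 3 or NIH3T3 clone 1 was left out (adjusted p up to 0.106). Bdnf lost its call when clone 3 was left out (adjusted p up to 0.058). Ccdc189 and Pygl lost the call whichever of the 5 clones of both lines was left out (adjusted p up to 0.156 and 0.153).

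Only 16 genes were called lower and at least 2-fold lower in every clone. Besides those above, Ramp3, which modifies receptors of the calcitonin family, read 72.7 in the control against 2.46, 8.78 and 10.6 in clones 1, 2 and 3 (-2.36 ± 0.36, adjusted p = 0.0228). Cdc42ep1, an effector of the GTPase Cdc42, read 654 in the control against 183, 191 and 141 in clones 1, 2 and 3 (-1.89 ± 0.21, adjusted p = 0.00793). Grwd1 and Mdn1, a histone-binding protein and an ATPase that both serve ribosome assembly, read 2424 in the control against 1102, 1039 and 907 in clones 1, 2 and 3 (-1.25 ± 0.17, adjusted p = 0.0152) and 986 in the control against 434, 436 and 410.1 in the clones (-1.19 ± 0.18, adjusted p = 0.0207). The clones lay below the control for each of these. Gpatch4, a nucleolar G-patch protein, changed by -1.23 ± 0.16, adjusted p = 0.0144. Tnfrsf12a, the receptor of the cytokine TWEAK, read 1319 in the control against 601, 542 and 535 in clones 1, 2 and 3 (-1.23 ± 0.22, adjusted p = 0.0453), and Flvcr1, a choline and haem transporter, 3012 in the control against 1367, 1415 and 1161 in clones 1, 2 and 3 (-1.20 ± 0.16, adjusted p = 0.0147). Zcchc24 and Tmem158, at -1.89 ± 0.27 and -1.25 ± 0.18, each have a dim second probe set with the other sign, at 1.03 and 1.00, that was not called. Ramp3 and Zcchc24 were tested because the NIH3T3 arrays reached the filter. The 16 falls gave 5, 7 and 4 calls without clone 1, 2 or 3 and 9 and 12 without NIH3T3 clone 1 or 2. Among falls of at least 2-fold that missed the call, Tnnt2, a troponin, read 240.5 in the control against 46.3, 47.6 and 55.1 in the clones (-2.09 ± 0.43, adjusted p = 0.0655), and Lgr6, an R-spondin receptor, read 112 in the control against 34.1, 19.5 and 15.1 in the clones (-1.97 ± 0.48, adjusted p = 0.101).

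Whether the changes in B16F10 differed from those in NIH3T3 was tested by the difference of the 2 changes in the same fit. The difference was called for 1737 probe sets (6.88%), or 1022 genes (8.78%), and for 116 of the 177 genes called in B16F10 (65.5%), a group selected on 1 of the 2 terms of that difference. Without B16F10 clone 1, 2 or 3 the count was 739, 973 and 780 probe sets, and without the uncloned NIH3T3 population 4419. Of the 133 genes called higher in B16F10 61 had an NIH3T3 change above 0, and of the 44 called lower 22 had one below 0.

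The integrated stress response list had a median change of -0.02 in NIH3T3, against 1.27 in B16F10, and 12 of its 28 genes differed between the lines by the test. Trib3 in NIH3T3 read 958 in its control and 1113, 691 and 666 in clone 1, clone 2 and the uncloned population, and the difference between the lines was 4.27 ± 0.39 (adjusted p = 0.00127). Nupr1 read 826 in its control and 1132, 1126 and 1286 in clone 1, clone 2 and the uncloned population, a change of 0.51, and the difference was 3.98 ± 0.28 (adjusted p = 0.000462). The NIH3T3 arrays of both genes lay within a narrow range, next to the wide gap in B16F10. Rhox5 read 19260.5 in its control and 20977, 21890.0 and 17197 in clone 1, clone 2 and the uncloned population, with a difference of 4.17 ± 0.30 (adjusted p = 0.000462). Rhox5 was thus far more abundant in the fibroblasts than in any B16F10 clone. The fibroblast gene Col1a1, at 23293 in the NIH3T3 control, read 2.26, 1.68 and 8.49 in B16F10 clones 1, 2 and 3. The source of the Rhox5 signal in the B16F10 clones was not tested.

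Etv5, Ccnd1 and Egr1 had changes of opposite sign in the 2 lines. The Etv5 change was 1.90 in NIH3T3, where it read 644 in its control and 2409, 2381 and 2506 in clone 1, clone 2 and the uncloned population, and the difference was -4.52 ± 0.38 (adjusted p = 0.000852). The Ccnd1 change in NIH3T3 was 1.34 (difference -2.99 ± 0.22, adjusted p = 0.000466), and that of Egr1 -0.72 (difference 3.95 ± 0.36, adjusted p = 0.00126). The ERK list as a whole had a median of 1.38 in NIH3T3 and -0.35 in B16F10. Fbln5, which encodes the elastic fibre protein fibulin-5, rose in B16F10, with 3248 in the control against 5323, 5274 and 6023 in clones 1, 2 and 3 (0.77 ± 0.14, adjusted p = 0.0453), against -4.08 in NIH3T3, the largest difference between the lines among called genes. Gch1, the first enzyme of tetrahydrobiopterin synthesis, rose in B16F10, with 42.9 in the control against 174, 200.2 and 257 in clones 1, 2 and 3 (2.06 ± 0.27, adjusted p = 0.0142), against 4.08 in NIH3T3, so that the difference was -2.01 ± 0.38 (adjusted p = 0.0203). Tm4sf1, Oaf and Niban2 were called lower in B16F10, at -0.99 ± 0.12, -0.82 ± 0.13 and -0.91 ± 0.17, against 1.41, 1.97 and 0.91 in NIH3T3. In the B16F10 comparison Gch1 lost its call when clone 3 was left out (adjusted p up to 0.057). Tm4sf1 lost its call when clone 3 was left out (adjusted p up to 0.051). Fbln5, Oaf and Niban2 lost the call whichever of the 5 clones of both lines was left out (adjusted p up to 0.167, 0.108 and 0.148).

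**Figure D5:**
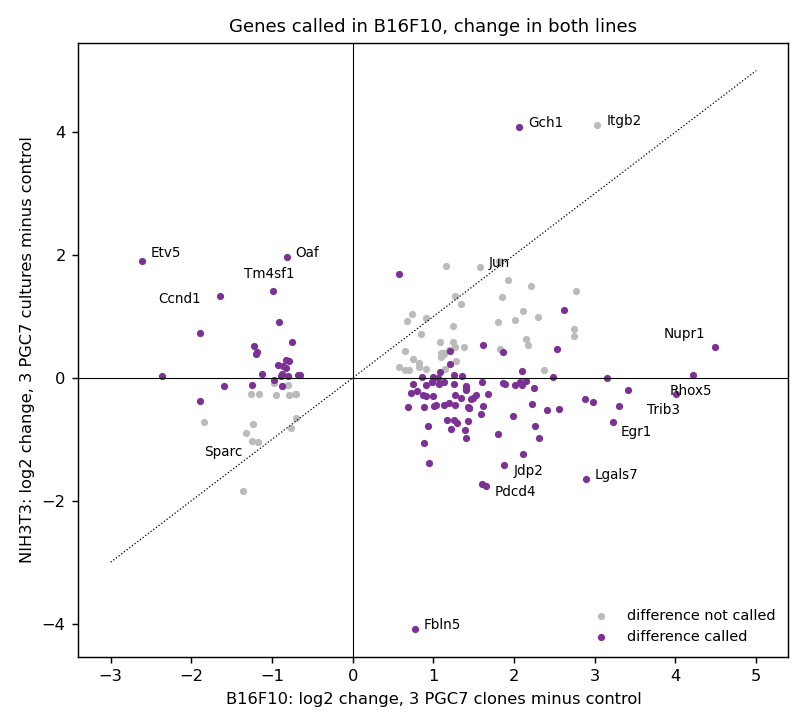
Change of each of the 177 genes called in B16F10 in that line (x axis) and in NIH3T3 (y axis), on the log2(signal + 9) scale; the dotted line marks equal changes, and purple points are the 116 genes whose difference between the lines was called. Nupr1, Rhox5 and Trib3 lie far to the right and near 0 on the y axis, and Etv5 lies at the lower end of the x axis and above 0 on the y axis.

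The order of the clones by size of change varied between lists. Over 19 genes of the integrated stress response that were called or 2-fold higher, clone 2 was the highest clone for 12, clone 3 for 5 and clone 1 for 2. It was also the highest for all 5 such genes of serine and related synthesis and all 4 called tRNA synthetases. Asns and Gpt2 of the former and Cars of the latter are counted in the stress response list too. The 6 hypoxia genes and 4 of 5 melanocyte genes were highest in clone 3. Over all 338 genes called or 2-fold higher, clone 1 was highest for 54, clone 2 for 114 and clone 3 for 170, and over all 11643 tested genes the numbers were 3021, 4577 and 4045. The spike probe sets were highest in clone 3 and lowest in clone 2, and their part in this order was not tested.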

How the data were processed

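Total RNA of 4 B16F10 and 4 NIH3T3 cultures was hybridised to Affymetrix arrays with biotin-labelled cRNA, per the labels' protocols. The deposited values of the 45101 probe sets are intensity signals that the authors made with MAS5, per the submitters' processing notes, and the version and settings of MAS5 are not given in the sources used here. All 64 control probe sets were left out. The NIH3T3 arrays were scaled to the B16F10 trimmed mean of 500.003 (2nd to 98th percentile), and log2(signal + 9) was fitted with limma 3.58.1 in R 4.3.3 (lmFit, eBayes with a variance trend) as 4 group means over 8 arrays. The number of arrays limits the precision. Nothing shows that the clones vary like replicate cultures, so the p-values cover the spread among these arrays, which may be technical. Probe sets were named from the platform annotation where 1 symbol was given (34958; 932 had several and 9211 none). Of the 1122 entries on 40 gene lists 1038 were measured. The clones, lists and named genes were chosen with earlier results of these data known. Named genes were the 20 largest called rises and falls of at least 2-fold, the 10 largest of each regardless of the call, the leading members of each list, and the 8 largest differences between lines in each direction. Others named for their role in a list are given with their test. Alternatives were other arrays in the fit, scalings, pseudocounts (1 and 50), filters and a common variance prior.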

Additional observations from a re-analysis of the deposited data

Results flagged for a closer look

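The change in B16F10 differed from that in NIH3T3 for 1737 probe sets by the limma test of the difference (6.88% of those tested). Among genes called in B16F10, the 8 that differed most upward were Fbln5 (4.85 on the log2 scale, B16F10 change minus NIH3T3 change), Lgals7 (4.54), Trib3 (4.27), Rhox5 (4.17), Nupr1 (3.98), Egr1 (3.95), Kdelr3 (3.77) and Hebp1 (3.61). Lgals7, a galectin of stratified epithelia, read 9.43 in the control against 119, 119 and 146 in clones 1, 2 and 3 in B16F10, and 85.9 in its control and 38.8, 13.7 and 16.4 in clone 1, clone 2 and the uncloned population in NIH3T3. The 8 that differed most downward were Etv5 (-4.52), Ccnd1 (-2.99), Oaf (-2.79), Zcchc24 (-2.62), Tm4sf1 (-2.40), Ramp3 (-2.39), Gch1 (-2.01) and Niban2 (-1.82). All 16 were chosen as the largest, so their sizes are a description.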

How the results depend on the processing

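No paired analysis was possible because each line has 1 control array and the clone numbers do not tie a clone to a control. Called probe sets numbered 300 (233 higher, 67 lower) and ranged from 59 to 139 without a B16F10 clone (52 to 112 higher, 7 to 27 lower). Without an NIH3T3 array they ranged from 133 to 1829 (111 to 1164 higher, 22 to 665 lower). The B16F10 arrays alone gave 2883 (1758 higher, 1125 lower), quantile normalization 199 (155 and 44), spike scaling 3198 (144 and 3054), no filter 177 (138 and 39) and no variance trend 70 (62 and 8). NIH3T3 arrays as deposited gave 28 lower.

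At least 2-fold in all clones counted 710 probe sets (585 higher, 125 lower), and 928 to 1170 without 1 clone (694 to 839 higher, 214 to 331 lower). Leaving out a clone loosens this criterion, since only the remaining clones have to pass. Spike scaling gave 1250 (190 and 1060), pseudocount 1 gave 1070 with 213 lower, pseudocount 50 gave 269 (229 and 40), no filter 1410 (932 and 478), and a filter on the B16F10 arrays 468 with 57 lower. The difference between lines was called for 1737 probe sets, 739 to 4419 without 1 array, 1045 with NIH3T3 arrays as deposited, 6732 with spike scaling and 934 without a variance trend.

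Among the 185 genes named by the rules given above 10 changed sign, all with spike scaling and none of them called: Atp5o -0.36, B2m -0.22, Cox6a1 -0.38, Hspa2 -0.048, Pgk1 -0.27, Rpl8 -0.42, Rplp2 -0.43, Rps14 -0.42, Sdf2l1 -0.28 and Sdhc -0.24. Genes named only for their role in a list were not followed here, and small rises among them may turn too. Of all 177 called genes 175 kept their direction with spike scaling. The other counts stayed within 1.5 times of the main count. Signals near 49.3 limit what can be seen of dim genes. The cause of these shifts was not tested.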

Other observations

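Called genes outside the lists include further factors of ribosome and polyamine production, named after their values were seen. Nop2, an rRNA methyltransferase, read 2517 in the control against 1428, 1376 and 1328 in clones 1, 2 and 3 (-0.87 ± 0.13, adjusted p = 0.0242), and Srm, spermidine synthase, 7975 in the control against 4543, 4525 and 3984 in clones 1, 2 and 3 (-0.88 ± 0.11, adjusted p = 0.014). Rrp1b and Rrp15, both nucleolar, changed by -0.98 ± 0.16 and -0.93 ± 0.17, and Mtap, which recycles the by-product of polyamine synthesis, by -0.75 ± 0.10, adjusted p = 0.014. The clones lay below the control for each. Pck2, the mitochondrial phosphoenolpyruvate carboxykinase that ATF4 induces, read 435 in the control against 1548, 2585 and 1717 in clones 1, 2 and 3 (2.10 ± 0.31, adjusted p = 0.0194). Ypel2 and Ypel3, of a family of conserved zinc-binding proteins, rose by 1.86 ± 0.23, adjusted p = 0.0118 and 2.10 ± 0.25, adjusted p = 0.0118. Ahnak, a giant scaffold protein, read 132 in the control against 372, 509 and 381 in clones 1, 2 and 3 (1.59 ± 0.18, adjusted p = 0.00914), and Btg1, an antiproliferative protein, 1033 in the control against 3217, 2379.7 and 2722 in clones 1, 2 and 3 (1.41 ± 0.20, adjusted p = 0.0186). For these rises every clone was above the control. Ahnak kept the call in each of the 5 fits without 1 clone of either line. Without a variance trend Ahnak was not called (adjusted p = 0.0634). Srm lost its call when clone 1 or clone 3 was left out (adjusted p up to 0.0595). Mtap lost its call when clone 1 or clone 3 was left out (adjusted p up to 0.0682). Pck2 lost its call when clone 3 or NIH3T3 clone 1 was left out (adjusted p up to 0.0733). Ypel2 lost its call when clone 1 or clone 3 was left out (adjusted p up to 0.0595). Ypel3 lost its call when clone 3 was left out (adjusted p up to 0.057). Btg1 lost its call when clone 1 or clone 3 was left out (adjusted p up to 0.0784). Nop2 lost its call when clone 1, clone 2, clone 3 or NIH3T3 clone 1 was left out (adjusted p up to 0.113). Rrp1b and Rrp15 lost the call whichever of the 5 clones of both lines was left out (adjusted p up to 0.126 and 0.167).

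The 2-fold rises were spread over the chromosomes. Per chromosome, the share of tested genes that was at least 2-fold higher in every clone was lowest on X (3 of 354, 0.848%) and highest on chromosome 10 (21 of 577, 3.64%), with 31 of 878 (3.53%) on chromosome 7. Rhox5 was the 1 called rise on X.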
